A study of Mus musculus with 2 samples.

Results

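The vascular endothelial growth factor (VEGF) and angiopoietin genes described here are the ligands Vegfa, Vegfc, Vegfd, Angpt1 and Angpt2 and the receptors Flt1, Kdr, Flt4, Tek and Tie1. They were taken by symbol from the gene lists of both libraries, which gave 10 of 34285 genes, each present as 1 row. Mandibular first molars with the tissue around them were dissociated at PN15.5 from C57BL/6J mice, and their single cells were captured with the 10x Genomics system. The Lipo-Clo library came from mice injected with clodronate liposomes, a treatment against macrophages. There were 4 injections of 40 μg/g each, at PN3.5 and PN6.5 and then at PN9.5 and again at PN12.5. The Lipo-PBS library came from mice injected with vehicle liposomes on those days. The 2 groups share strain, age and tissue, both received liposomes, and the number of mice pooled in each library is not stated in the sources used here. Each condition is 1 library, so no test between conditions was possible, and the intervals below cover counting error only at the 95% level. They compare these 2 libraries and not the conditions.

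VEGF ligands act on tyrosine kinase receptors of the vessel wall. VEGF-A signals mainly through VEGFR2, the product of Kdr, while VEGFR1, the product of Flt1, binds the ligand tightly and also occurs as a soluble decoy. VEGF-C and VEGF-D act on VEGFR3, the product of Flt4, which in mature tissue is best known from lymphatic vessels. Angiopoietin-1, secreted by cells around vessels, activates the receptor TIE2, encoded by Tek. Angiopoietin-2 can block or activate TIE2 according to context, and TIE1 is an orphan partner of TIE2. In the tooth, vessels of the pulp, the follicle and the periodontal ligament supply a mineralizing tissue that holds no vessels of its own.

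After cell filtering, 8254 Lipo-Clo cells with 26852424 unique molecular identifiers (UMIs) and 8261 Lipo-PBS cells with 25831678 UMIs remained, at a median of 2567 and 2678 UMIs per cell. The libraries shared 23 cell barcodes. Cells were grouped into classes from marker genes. The 10 genes were kept out of the marker lists and of the variable genes used for grouping. They were not kept out of the leading genes that the naming also read. Those included Flt1 and Kdr for an endothelial cluster and Tek for an endothelial subcluster. Endothelium comprised 388 Lipo-Clo and 514 Lipo-PBS cells, and all 8 of its markers, among them Pecam1 and Cdh5, were detected in both libraries. Perivascular cells numbered 402 and 571, and dental mesenchyme numbered 4086 and 3916. Macrophages, the cells targeted by clodronate, numbered 127 (1.54% of cells) and 175 (2.12%). A separate mixed myeloid class, with markers of macrophages, osteoclasts, dendritic cells and neutrophils, numbered 385 and 234. A cluster led by Acta2, Tagln and Rgs5 carried 7 endothelial, 7 perivascular and 8 mesenchymal markers together and was left unnamed. It also carried 5 neutrophil, 4 epithelial, 3 macrophage and 3 osteoblast or cementoblast markers. It held 73 Lipo-Clo and 679 Lipo-PBS cells, and its part in the values below is given where it matters. Levels are given as CPM, the UMIs of a gene over all UMIs of the cells in question with the usual scaling, and a level is compared only within a gene. Mitochondrial genes took 0.370% of Lipo-Clo and 1.73% of Lipo-PBS UMIs.

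The promoters of the VEGF-A receptors Flt1 and Kdr and of the TIE receptors Tie1 and Tek are shown because their endothelial levels are compared most closely below. RefSeq promoter windows, from 250 bases before to 50 bases after the start, were matched by symbol for 8 of the 10 genes on GRCm38.p6. They were searched on both strands for 3 pairs of words. No word holds another. The pair AGGAAG and CGGAAG holds the GGAA core bound by ETS factors, which act widely in endothelial genes. Each sequence reads 5′ to 3′ along the gene's own strand, and capitals mark these words or their reverse complements.
Flt1, minus strand, chr5:147725962-147726261: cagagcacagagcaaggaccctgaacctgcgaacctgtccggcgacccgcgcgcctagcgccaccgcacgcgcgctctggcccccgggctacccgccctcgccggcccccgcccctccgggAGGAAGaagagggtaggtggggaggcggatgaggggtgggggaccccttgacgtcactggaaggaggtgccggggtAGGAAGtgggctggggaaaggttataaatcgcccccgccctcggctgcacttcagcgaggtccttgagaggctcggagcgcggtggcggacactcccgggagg
Tie1, minus strand, chr4:118489800-118490099: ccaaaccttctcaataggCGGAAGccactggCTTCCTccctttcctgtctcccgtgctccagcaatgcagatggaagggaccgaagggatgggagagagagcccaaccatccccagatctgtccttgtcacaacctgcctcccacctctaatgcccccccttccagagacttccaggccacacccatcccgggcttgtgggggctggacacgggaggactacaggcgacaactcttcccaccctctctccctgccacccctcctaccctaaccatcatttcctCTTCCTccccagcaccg
Kdr, minus strand, chr5:75978406-75978705: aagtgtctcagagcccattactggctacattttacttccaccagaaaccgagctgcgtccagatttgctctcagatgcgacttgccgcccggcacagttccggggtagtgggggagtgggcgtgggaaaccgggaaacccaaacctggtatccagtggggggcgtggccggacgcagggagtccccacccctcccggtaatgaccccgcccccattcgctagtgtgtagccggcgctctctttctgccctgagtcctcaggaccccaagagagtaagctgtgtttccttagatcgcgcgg
Tek, plus strand, chr4:94739039-94739338: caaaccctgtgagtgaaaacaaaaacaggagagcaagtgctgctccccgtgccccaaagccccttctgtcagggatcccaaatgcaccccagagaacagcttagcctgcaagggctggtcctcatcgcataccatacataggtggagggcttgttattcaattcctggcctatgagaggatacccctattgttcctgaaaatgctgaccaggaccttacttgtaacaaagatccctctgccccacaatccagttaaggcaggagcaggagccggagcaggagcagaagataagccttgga
The ETS words matched 2 times in the Flt1 window and 3 times in the Tie1 window and in none of the other 7 windows of these genes, while 46.5% of all 32851 promoter windows held at least 1 match. The words ACGTG and GCGTG, the core of hypoxia response elements, were found in the windows of Flt1 and Kdr and in the second of 2 Vegfa windows, against 43.8% of all windows. The GATA words AGATAA and TGATAA were found in the windows of Vegfd and Tek and in the first Vegfa window, against 18.6% of all windows. A match describes letters in the window and not a bound site.

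The receptors lay mainly in endothelium and the ligands mainly outside it. Endothelium held 72.8% of the UMIs of the 5 receptors in Lipo-Clo (1544 of 2122, Clopper-Pearson interval 70.8 to 74.7) and 57.3% in Lipo-PBS (1963 of 3423, 55.7 to 59.0). The intervals of the 2 libraries did not overlap. The unnamed mixed cluster held 26.0% of the Lipo-PBS UMIs of Flt1, 20.9% of those of Tie1, 18.6% of those of Kdr and 18.5% of those of Tek, against 3.60%, 7.33%, 5.05% and 4.42% in Lipo-Clo. With that cluster counted as endothelium, the endothelial share was 77.1% in Lipo-Clo against 78.1% in Lipo-PBS, so the lower share of Lipo-PBS depends on where those cells are placed.

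Dental mesenchyme held 63.4% of Vegfa UMIs in Lipo-Clo (631 of 995, 60.3 to 66.4) and 65.3% in Lipo-PBS (748 of 1145, 62.5 to 68.1), and these intervals overlapped. Its share of Vegfc was 63.0% (57.1 to 68.7) and 59.8% (55.3 to 64.1). For Angpt1 the share was 73.8% (70.4 to 77.0) and 69.4% (66.8 to 71.9). Vegfd, the sparsest of the 10 genes with 82 and 111 UMIs, was also mainly mesenchymal, at 78.0% (67.5 to 86.4) and 60.4% (50.6 to 69.5). Angpt2 was the exception among the ligands. Perivascular cells held 45.9% of its UMIs in Lipo-Clo (38.2 to 53.7) against 30.9% in Lipo-PBS (25.5 to 36.7), and endothelium held 15.3% and 25.1%.

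**Figure D1:**
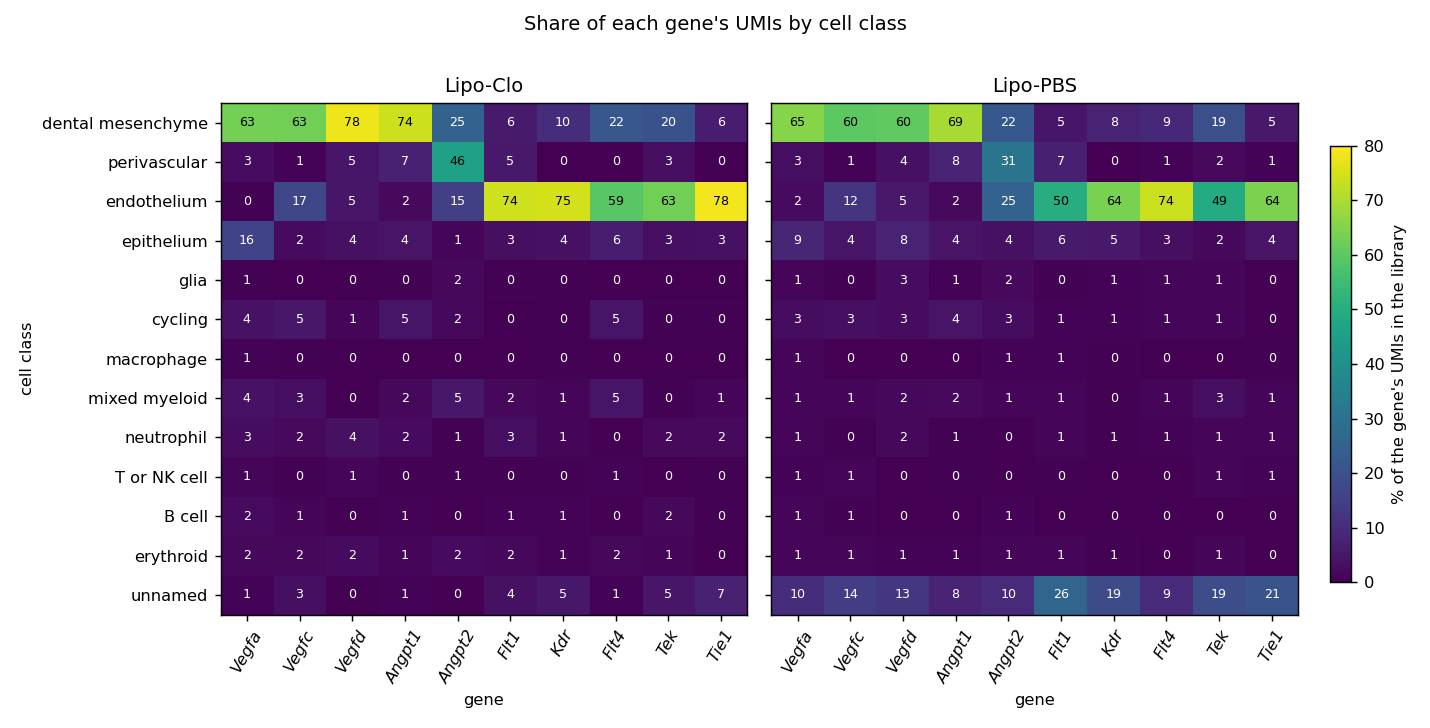
Share of each gene's UMIs (%, colour and printed value) that lay in each cell class (rows) of the Lipo-Clo library (left) and the Lipo-PBS library (right), with ligands in the first 5 columns and receptors in the last 5. The receptor columns are brightest in endothelium (59.1% to 78.4% in Lipo-Clo and 49.1% to 73.7% in Lipo-PBS), the Vegfa, Vegfc, Vegfd and Angpt1 columns in dental mesenchyme and the Angpt2 column in perivascular cells.

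Vegfa, the main growth factor for blood vessels, was spread over several classes. Its level was 47.1 CPM in Lipo-Clo (43.5 to 50.9) against 58.0 CPM in Lipo-PBS (53.9 to 62.3) in dental mesenchyme and 60.1 (51.2 to 70.2) and 38.7 (31.5 to 47.1) in epithelium. The epithelial class was filled differently in the libraries, with 606 Lipo-Clo and 339 Lipo-PBS cells in the cluster led by the enamel genes Ambn, Amtn and Amelx, and 181 and 374 cells in the cluster led by the keratinocyte genes Lgals7, Krt14 and Krt15. In the Ambn-led cluster Vegfa was 83.0 CPM (138 UMIs, 69.7 to 98.0) and 53.5 CPM (48 UMIs, 39.5 to 71.0), and in the Lgals7-led cluster it was 19.2 CPM (16 UMIs, 10.98 to 31.2) and 24.9 CPM (36 UMIs, 17.4 to 34.4). The Ambn-led cluster held 138 of the 160 epithelial Vegfa UMIs of Lipo-Clo but 48 of the 100 of Lipo-PBS. Another cluster, led by Cxcl14 and Dsc3, held 6 UMIs (36.4 CPM, 13.3 to 79.1) and 16 UMIs (67.15 CPM, 38.4 to 109). Macrophages held 8 Vegfa UMIs in Lipo-Clo (27.1 CPM, 11.7 to 53.5) and 15 in Lipo-PBS (31.2 CPM, 17.4 to 51.4). B cells, which served as a background class, had 19.5 CPM (12.2 to 29.5) and 23.6 CPM (12.2 to 41.1). The 8 mesenchymal markers summed to 14521 and 20118 CPM in B cells, against 71162 and 71097 CPM in dental mesenchyme. The part of such RNA in B cell Vegfa was not tested. The macrophage intervals overlapped those of B cells, so macrophage Vegfa could not be told from that of B cells at this depth. Erythroid cells, the other background class, were lower, at 9.41 CPM in Lipo-Clo (16 UMIs) and 10.6 CPM in Lipo-PBS (11 UMIs). Whether macrophages exceeded erythroid cells was not tested. Macrophages held 0.804% and 1.31% of all Vegfa UMIs. Of the other 9 genes macrophages held at most 9 UMIs in either library, and Flt4, Tek and Vegfd had 0 in both, which allows levels of up to 10.2 CPM in Lipo-Clo or 6.23 CPM in Lipo-PBS.

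Among the 11 subclusters of dental mesenchyme, with both libraries together, the highest Vegfa level was 120 CPM in the fibroblast-like subcluster led by Col14a1 and Ccl19. The dental follicle-like subcluster (71.7 CPM), the Edil3-led periodontal ligament-like subcluster (70.8 CPM), the odontoblast-like subcluster (65.1 CPM) and the Ctnnd2-led papilla or pulp-like subcluster (62.5 CPM) came next and were close to each other. The lowest level was 30.1 CPM in osteoblast or cementoblast-like cells, which make mineralized matrix. There it was 27.9 CPM in Lipo-Clo (19.7 to 38.3) against 32.4 CPM in Lipo-PBS (23.5 to 43.7), and these intervals overlapped those of B cells. Erythroid cells, the other background class, were lower, at 9.41 and 10.6 CPM.

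Vegfc and Vegfd, the growth factors of lymphatic vessels, were more restricted within the mesenchyme. Vegfc reached 56.9 CPM in the Ccl19-led fibroblast-like subcluster and 43.2 CPM in the dental follicle-like subcluster, and lay between 4.54 and 5.95 CPM in the odontoblast-like, osteoblast or cementoblast-like and both papilla or pulp-like subclusters. Vegfd was found mainly in the fibroblast-like subclusters. The Ccl19-led subcluster held 15 Vegfd UMIs in Lipo-Clo (41.0 CPM, 22.9 to 67.6) and 16 in Lipo-PBS (36.1 CPM, 20.7 to 58.7), and the Mfap5-led subcluster held 28 (28.4 CPM) and 37 (18.6 CPM). With both libraries together those subclusters held 31 and 65 Vegfd UMIs, the dental follicle-like one held 13 (4.26 CPM), and no other mesenchymal subcluster exceeded that level.

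Angpt1, the activating ligand of TIE2, showed a further pattern. With both libraries together its highest level, 142 CPM, was in the Mfap5-led fibroblast-like subcluster, followed by 111 CPM in an unnamed subcluster led by Mmp13 and Sfrp2, 92.8 CPM in the Ctnnd2-led papilla or pulp-like subcluster and 70.5 CPM in the Ccl19-led fibroblast-like subcluster. It was 9.79 CPM in the Tnn-led periodontal ligament-like subcluster, 6.32 CPM in osteoblast or cementoblast-like cells and 6.05 CPM in odontoblast-like cells. This order differed between the libraries. In Lipo-Clo the Ctnnd2-led subcluster (121 CPM) had a higher value than the Mfap5-led (101 CPM) and Mmp13-led ones (98.5 CPM), with overlapping intervals, while in Lipo-PBS it was at 48.4 CPM and the Mfap5-led subcluster at 163 CPM. Perivascular cells had 70.2 CPM of Angpt1 in Lipo-Clo (52.6 to 91.9) against 72.3 CPM in Lipo-PBS (58.5 to 88.3), within the range of the higher mesenchymal subclusters.

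**Figure D2:**
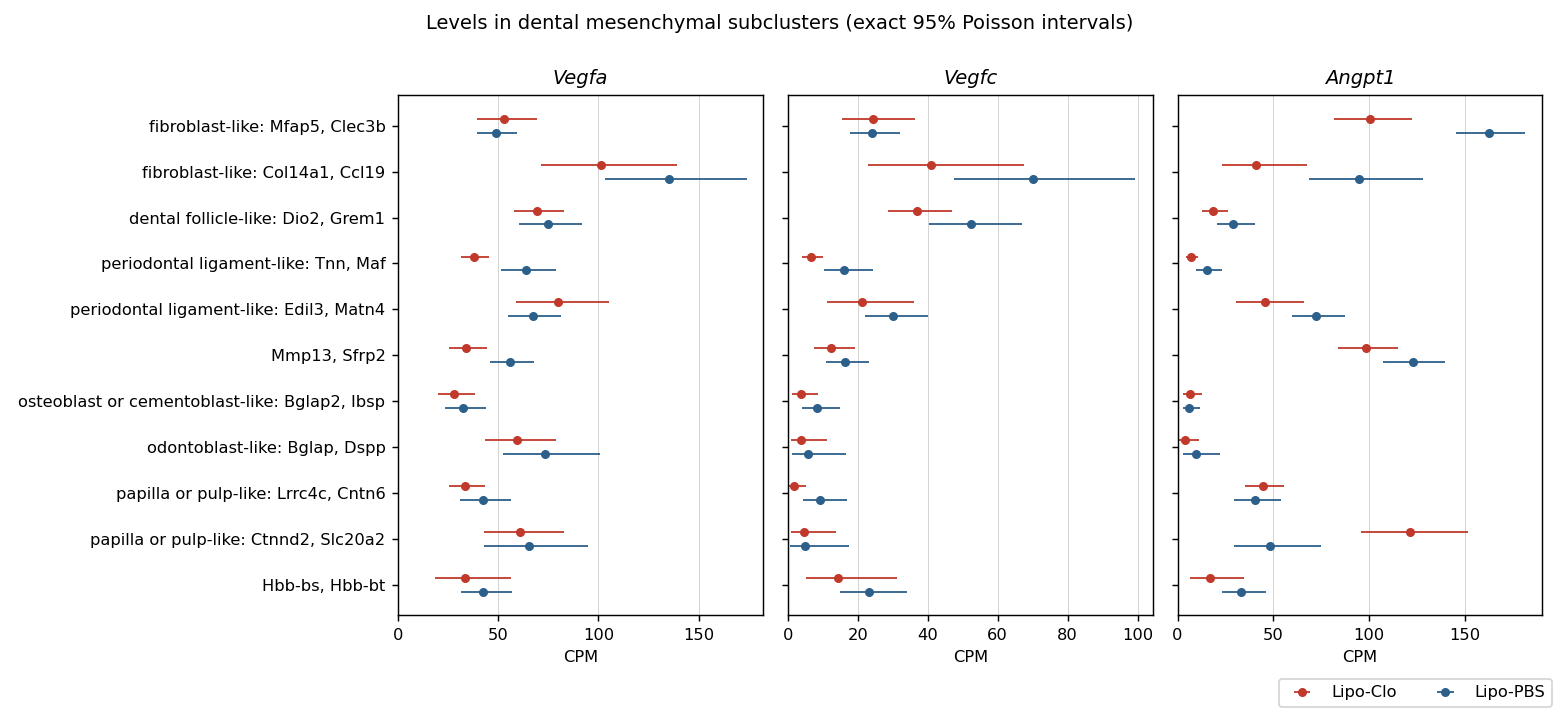
Levels of Vegfa, Vegfc and Angpt1 (CPM, horizontal axes) in the 11 subclusters of dental mesenchyme (rows, named by marker class where one applied and by leading genes), with Lipo-Clo in red and Lipo-PBS in blue and exact 95% Poisson intervals as bars. Angpt1 in the Mfap5-led fibroblast-like subcluster was 101 CPM in Lipo-Clo against 163 CPM in Lipo-PBS, and in the Ctnnd2-led papilla or pulp-like subcluster 121 CPM and 48.4 CPM.

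Angpt2, the context-dependent ligand of TIE2, reached 103 CPM in perivascular cells of Lipo-Clo (78 UMIs, 81.7 to 129) and 64.7 CPM in those of Lipo-PBS (85 UMIs, 51.6 to 79.9). With both libraries together it was 144 CPM in a subcluster led by Rgs16 and Irf1, 110 CPM in one led by Ifitm1 and Higd1b and 45.4 CPM in the smooth muscle-like subcluster led by Sorbs2. In endothelium Angpt2 was highest in the lymphatic-like subcluster, at 134 CPM, and was 34.9 CPM or less in the subclusters led by Rgcc, Plcb1 and Adamts9. Flt1, the VEGF-A receptor, also had a perivascular level of 64.9 CPM in Lipo-Clo (49 UMIs, 48.0 to 85.8) and 66.2 CPM in Lipo-PBS (87 UMIs, 53.0 to 81.6). Of the perivascular cells with a Flt1 UMI, 13 of 34 and 26 of 51 also held a UMI of an endothelial marker, against 42.0% and 41.7% of all perivascular cells. Kdr, in contrast, had 1 and 2 UMIs in perivascular cells.

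In endothelium Flt1 was 1144 CPM in Lipo-Clo (681 UMIs, 1060 to 1233) and 501 CPM in Lipo-PBS (623 UMIs, 462 to 542). Kdr was 771 CPM (702 to 845) and 458 CPM (421 to 498). Tie1 was 306 CPM (263 to 354) and 228 CPM (202 to 256), and Tek was 264 CPM (224 to 308) and 215 CPM (190 to 243). Flt4 was 109 CPM (84.3 to 139) and 176 CPM (154 to 201). After thinning each cell to 1000 UMIs, which left 229 Lipo-Clo and 367 Lipo-PBS endothelial cells, 55.5% and 35.4% held a Flt1 UMI, against 65.7% and 53.3% without thinning. The thinned share was 0.778% and 0.735% in B cells and 1.33% and 1.59% in erythroid cells, at median depths of 1112 and 1424 UMIs in endothelium, 977 and 1016 in B cells and 3640 and 3236 in erythroid cells.

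The receptors did not share 1 pattern within the endothelium. Its 9 subclusters included a lymphatic-like one, led by Ccl21a, Fgl2 and Mmrn1 and carrying all 6 lymphatic markers, among them Prox1 and Lyve1. Flt1 had 0 UMIs there in Lipo-Clo, which allows up to 41.2 CPM, and 8 UMIs in Lipo-PBS (26.6 CPM, 11.5 to 52.4), against 2246 CPM with both libraries together in the Plcb1-led subcluster. The Plcb1-led subcluster passed the marker limit for 3 arterial genes but had 0 of them among its leading genes, and it stayed unnamed. Kdr was less uneven, at 377 CPM in the lymphatic-like subcluster, 520 CPM in the Adamts9-led one, 776 CPM in the Rgcc-led one and 1439 CPM in the Plcb1-led one. Flt4 was highest where Flt1 was lowest, at 343 CPM in Lipo-Clo (222 to 507) against 409 CPM in Lipo-PBS (340 to 487) in the lymphatic-like subcluster. Elsewhere in the endothelium it was between 23.2 and 149 CPM with both libraries together.

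The Adamts9-led subcluster passed the marker limit for 4 venous genes but had 0 of them among its leading genes, and it too stayed unnamed. Tek was highest there, at 554 CPM in Lipo-Clo (379 to 783) against 773 CPM in Lipo-PBS (625 to 945). It was 115 CPM in the lymphatic-like subcluster with both libraries together. Tie1 differed little among the 4 subclusters with most cells, from 286 CPM in the lymphatic-like to 353 CPM in the Plcb1-led one. Vegfc, the one ligand with a clear endothelial level beside Angpt2, was 205 CPM in the Plcb1-led subcluster and 5.35 CPM in the lymphatic-like one, where it had 2 UMIs. Flt1, Flt4, Tek and Vegfc thus peaked in 3 different subclusters.

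**Figure D3:**
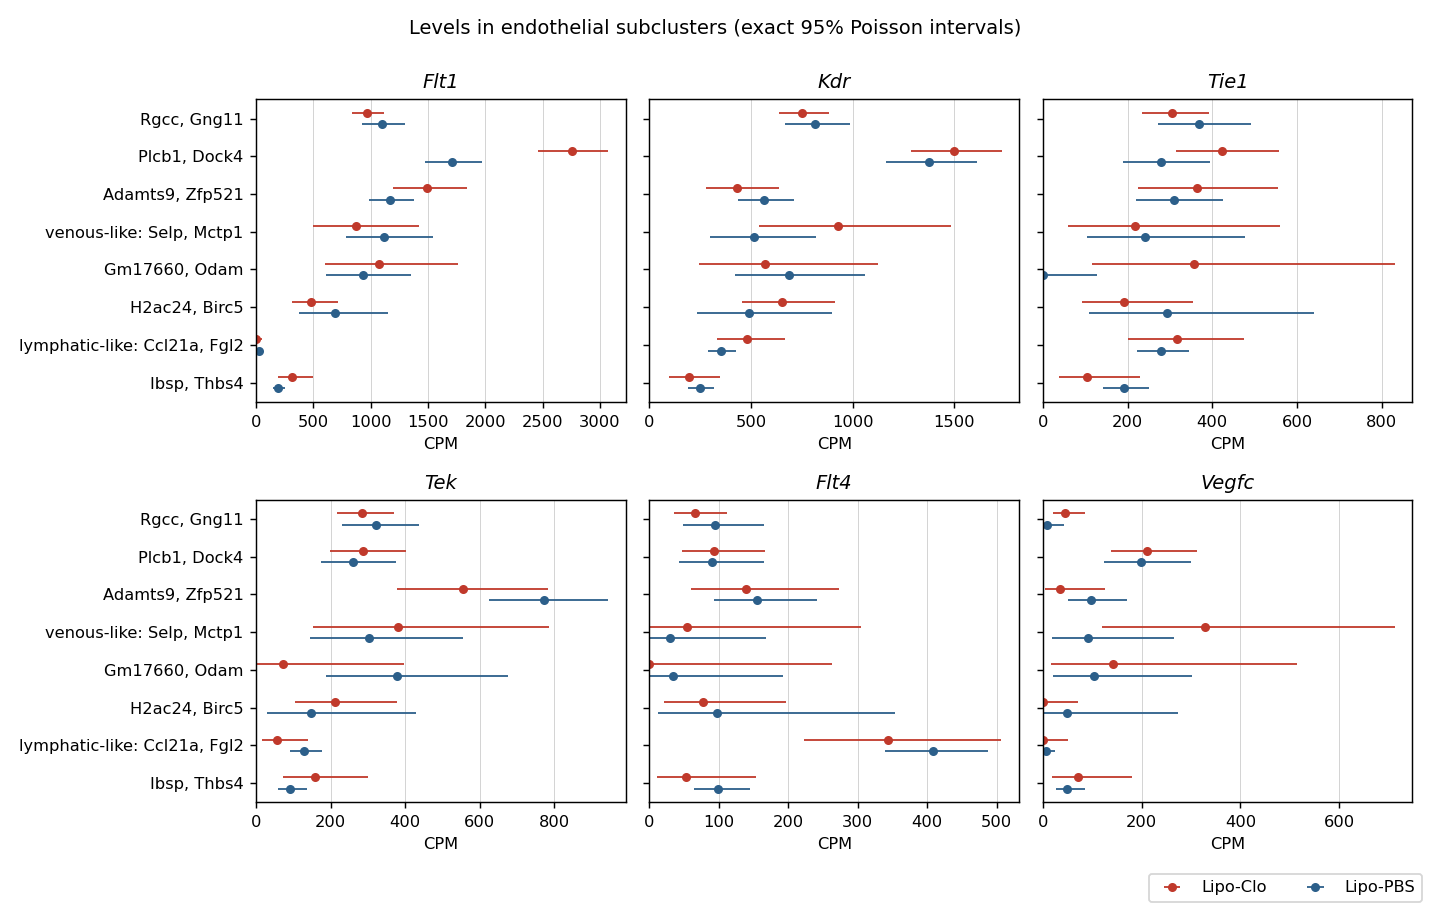
Levels of the 5 receptors and of Vegfc (CPM, horizontal axes) in 8 of the 9 endothelial subclusters (rows, named by marker class where one applied and by leading genes), with Lipo-Clo in red, Lipo-PBS in blue and exact 95% Poisson intervals as bars. A subcluster with 3 Lipo-Clo cells is not drawn. Flt4 was highest in the lymphatic-like subcluster (343 and 409 CPM), where Flt1 had 0 and 8 UMIs, and Tek was highest in the Adamts9-led subcluster (554 and 773 CPM).

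Outside vessels, UMIs of Tek, Flt4 and Flt1 were found in some mesenchymal subclusters. Kdr also had 64 UMIs in 57 Lipo-Clo cells (4.78 CPM) and 70 UMIs in 67 Lipo-PBS cells (5.42 CPM) over the whole dental mesenchyme. Of those cells, 11 and 31 held a UMI of an endothelial marker, against 13.5% and 19.6% of all mesenchymal cells. Tek had 35 UMIs in Lipo-Clo (35.5 CPM) and 81 in Lipo-PBS (40.7 CPM) in the Mfap5-led fibroblast-like subcluster, and at most 5 and 6 UMIs in any other mesenchymal subcluster. Of the 28 and 59 cells with a Tek UMI there, 4 and 14 held a UMI of an endothelial marker, against 19.0% and 22.2% of all cells of that subcluster. Flt4 had 15 UMIs in 15 Lipo-Clo cells (9.29 CPM) and 16 UMIs in 14 Lipo-PBS cells (8.72 CPM) in the Mmp13-led subcluster, and at most 3 and 4 UMIs in any other. Of those cells, 1 and 3 held a UMI of an endothelial marker, against 12.7% and 19.2% of all cells of that subcluster. In the Lrrc4c-led papilla or pulp-like subcluster Flt1 had 19 UMIs in 9 Lipo-Clo cells (11.1 CPM, 6.70 to 17.4) against 3 UMIs in 2 Lipo-PBS cells (2.75 CPM, 0.568 to 8.04), a log2 ratio of 2.02 (0.25 to 4.42). It had 5 UMIs (5.08 CPM) and 22 UMIs (11.04 CPM) in the Mfap5-led subcluster, and 5 UMIs (6.31 CPM) and 10 UMIs (18.9 CPM) in odontoblast-like cells. Of the Lrrc4c-led cells with a Flt1 UMI, 6 of 9 and 1 of 2 held a UMI of an endothelial marker, against 15.1% and 15.4% of all cells there. In the Mfap5-led subcluster 2 of 3 and 6 of 12 did, against 19.0% and 22.2% of all its cells. In odontoblast-like cells 1 of 2 and 7 of 7 did, against 8.15% and 24.2%. Cells with a Flt1 UMI, unlike those with Tek or Flt4, thus held endothelial marker RNA far more often than all cells of these subclusters. Over the whole dental mesenchyme, 15 of 31 Lipo-Clo and 27 of 45 Lipo-PBS cells with a Flt1 UMI did, against 13.5% and 19.6% of all cells. The source of this Flt1 RNA was not tested. The counts are small, and each receptor was far lower there than in endothelium.

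Genes with the most similar pattern were sought over the 28 clusters, as Pearson's r of log2(CPM + 1) with both libraries summed, among 12242 genes with at least 200 UMIs. The clusters share depth and library and are no independent replicates. Flt1 was closest to the endothelial sialomucin gene Emcn (r = 0.94), then Sele (0.87) and Cd300lg (0.86). Kdr was closest to Cdh5, which encodes VE-cadherin (0.93), then Arhgef15 (0.93) and Thsd1 (0.91), and Tie1 was closest to Ushbp1 (0.92), Cdh5 (0.92) and Mall (0.91). Flt4 was closest to Kank3 (0.88), Klhl4 (0.87) and Ramp2 (0.84), and Tek to Cd34 (0.84), Ecscr (0.83) and Abcb1a (0.82). Angpt1 was closest to Igfbp3 (0.85), Fbln1 (0.85) and Cc2d1a (0.84), and Angpt2 to Tm4sf1 (0.80), Gng11 (0.79) and Rgs7bp (0.78). Vegfa was closest to Snap47 (0.86), Surf4 (0.85) and Lrp1 (0.84), and Vegfc to B4galt4, Fam171a2 and Grb10 (each 0.77). Vegfd, with 193 UMIs, was under the minimum.

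The Lipo-Clo library was then set against the Lipo-PBS library within each class, as the log2 ratio of CPM for genes with at least 20 UMIs in the class, and a ratio of at least 1.5-fold was counted by size. In endothelium 3 of the 9 members measured were at least 1.5-fold higher in Lipo-Clo, where 12.9% of all 9119 genes were, and 2 were at least 1.5-fold lower, where 14% of all genes were. The higher members were Flt1 (log2 ratio 1.19, 1.03 to 1.35), Vegfc (0.77, 0.18 to 1.34) and Kdr (0.75, 0.57 to 0.93). The lower members were Vegfa (-1.64, -3.62 to -0.11, from 4 and 26 UMIs) and Flt4 (-0.69, -1.11 to -0.28). Endothelial Vegfa, at 6.72 and 20.9 CPM, did not exceed that of B cells (19.5 and 23.6 CPM), a background class that also held mesenchymal marker RNA. Against erythroid cells (9.41 and 10.6 CPM) endothelial Vegfa was lower in Lipo-Clo and higher in Lipo-PBS. Of its UMIs, 3 of 4 in Lipo-Clo and 21 of 26 in Lipo-PBS lay in subclusters that carried lymphatic markers. With the mixed cluster counted as endothelium the Flt4 ratio was 0.34, and at a coarser clustering (Leiden resolution 0.5) it was 0.31, the opposite direction. Tie1 (0.43, 0.15 to 0.70) and Tek (0.29, -0.0018 to 0.58) were within the limit. The median log2 ratio was 0.39 over the members and 0.05 over all genes.

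The makeup of the endothelium differed between the libraries. Subclusters that carried lymphatic markers held 39 of the 388 endothelial cells of Lipo-Clo (10.1%, 7.25 to 13.5) but 175 of the 514 of Lipo-PBS (34.0%, 29.95 to 38.3). By UMIs, over which CPM is taken, these subclusters held 135466 of 595198 in Lipo-Clo and 799478 of 1243670 in Lipo-PBS. They comprised the lymphatic-like subcluster and a pair of unnamed subclusters. The lymphatic-like subcluster alone held 23 (5.93%, 3.79 to 8.76) and 76 (14.8%, 11.8 to 18.15) of the endothelial cells. The unnamed pair also carried mesenchymal genes such as Col1a1, and the subcluster led by Ccl21a and Angptl1 also S100a9 and Krt14. The 9 neutrophil markers summed to 1321 and 2557 CPM in the lymphatic-marked subclusters, against 774 and 142 CPM in the other endothelium. Over the 8 mesenchymal markers, the summed level in endothelium was 5879 CPM in Lipo-Clo against 14325 CPM in Lipo-PBS, with 0 of the markers undetected, and over the 8 endothelial markers it was 6022 and 3784 CPM.

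Without these subclusters 349 Lipo-Clo and 339 Lipo-PBS endothelial cells remained, and the mesenchymal markers summed to 2484 and 2096 CPM and the endothelial markers to 6743 and 6225 CPM. Of the 6 members measured there, 0 were at least 1.5-fold higher in Lipo-Clo, where 10.9% of all genes were, and 0 were at least 1.5-fold lower, where 13.7% were. Flt1 was 1438 CPM in Lipo-Clo against 1243 CPM in Lipo-PBS (log2 ratio 0.21, 0.05 to 0.38), and Kdr was 894 and 840 CPM (0.09, -0.12 to 0.30). Vegfc (0.02, -0.63 to 0.66), Tie1 (0.17, -0.18 to 0.52) and Flt4 (-0.33, with 0.33 as the upper bound) had intervals that included 0. Tek was 309 and 425 CPM (-0.46, -0.79 to -0.14), lower in Lipo-Clo within the limit, and with the sign opposite to that in the whole class. The receptor differences of the whole endothelium were thus absent at the 1.5-fold limit once these subclusters were left out. What remained held most endothelial cells of both libraries, but only 444192 of the 1243670 endothelial UMIs of Lipo-PBS. One subcluster stood apart from this, since Flt1 in the Plcb1-led subcluster was 2753 CPM in Lipo-Clo (325 UMIs, 2462 to 3070) and 1708 CPM in Lipo-PBS (190 UMIs, 1474 to 1969), a log2 ratio of 0.69 (0.43 to 0.95).

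**Figure D4:**
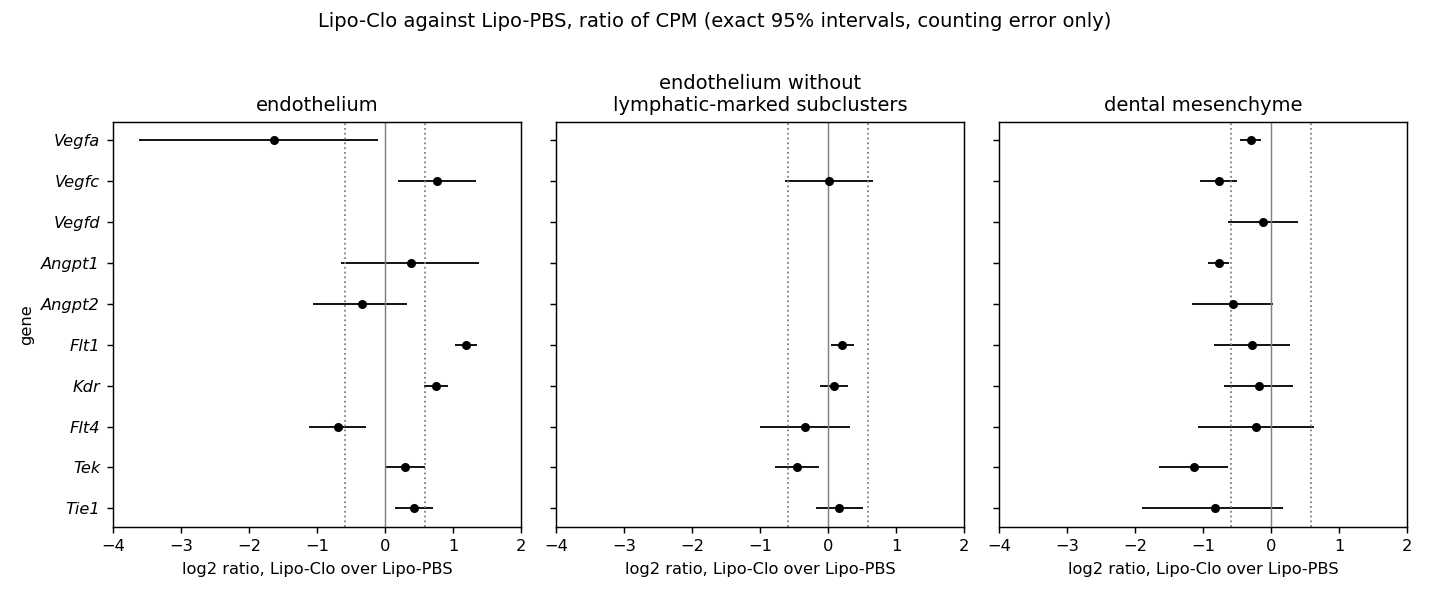
Log2 ratio of CPM, Lipo-Clo over Lipo-PBS, for the members with at least 20 UMIs in the whole endothelium (left), in the endothelium without lymphatic-marked subclusters (middle) and in dental mesenchyme (right), with exact 95% intervals for counting error as bars and the 1.5-fold limits as dotted lines. Flt1 is at 1.19 on the left and 0.21 in the middle, and 4 members lie below the lower limit on the right.

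In dental mesenchyme 0 of the 10 members were at least 1.5-fold higher in Lipo-Clo, where 5.51% of 15123 genes were, and 4 were at least 1.5-fold lower, where 9.24% of genes were. Angpt1 was 39.6 CPM in Lipo-Clo (530 UMIs) and 67.7 CPM in Lipo-PBS (873 UMIs), a log2 ratio of -0.77 (-0.93 to -0.62). Vegfc was 13.4 CPM (179 UMIs) and 22.8 CPM (294 UMIs), a ratio of -0.77 (-1.05 to -0.50). Tek (-1.14, -1.65 to -0.64) and Tie1 (-0.83, -1.90 to 0.18) were the other members past the limit. Tie1 was at 1.05 CPM in Lipo-Clo (14 UMIs) and 1.86 CPM in Lipo-PBS (24 UMIs). Of the cells with a Tie1 UMI, 4 of 12 and 15 of 23 held a UMI of an endothelial marker. With a Tek UMI, 7 of 43 and 24 of 83 did, against 13.5% and 19.6% of all mesenchymal cells. The 8 endothelial markers summed to 49.8 CPM in Lipo-Clo against 77.2 CPM in Lipo-PBS in dental mesenchyme. The 7 erythroid markers, which mark RNA of red cells, summed to 23128 and 50764 CPM, and the part of either list in these ratios was not tested. Vegfa differed less, with a ratio of -0.30 (-0.45 to -0.14). The median log2 ratio was -0.43 over the members and -0.02 over all genes.

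The mesenchymal subclusters were also unequally filled, with 876 Lipo-Clo and 413 Lipo-PBS cells in the Tnn-led periodontal ligament-like and 411 and 747 cells in the Mfap5-led fibroblast-like subcluster. With the subclusters mixed in identical proportions in both libraries, the ratio was -0.41 for Angpt1, -0.59 for Vegfc, -0.28 for Vegfa, -0.34 for Tek and -0.91 for Tie1. Within the Mfap5-led subcluster, which held most of the mesenchymal Tek, the Tek ratio was -0.19 (-0.81 to 0.39). Vegfc was lower in Lipo-Clo in 6 of the 7 subclusters with at least 20 of its UMIs, and the interval excluded 0 in 1, the Tnn-led subcluster (-1.31, -2.26 to -0.39). Vegfa was lower in 9 of 11 subclusters, with intervals that excluded 0 in 2.

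Angpt1 went both ways. It was lower in Lipo-Clo in 7 of the 9 subclusters measured, with intervals that excluded 0 in 5, among them the Mfap5-led (-0.69, -1.03 to -0.36) and the Ccl19-led fibroblast-like subclusters (-1.21, -2.17 to -0.33). In the Ctnnd2-led papilla or pulp-like subcluster it was higher, at 121 CPM (78 UMIs, 95.9 to 151) in Lipo-Clo and 48.4 CPM (20 UMIs, 29.5 to 74.7) in Lipo-PBS, a ratio of 1.33 (0.60 to 2.11). In the Lrrc4c-led papilla or pulp-like subcluster the libraries had 44.5 and 40.4 CPM (0.14, -0.41 to 0.71). The difference between subclusters was not tested. Outside the class named dental mesenchyme Angpt1 was also lower in Lipo-Clo, with intervals that excluded 0, in mixed myeloid, cycling and epithelial cells. The ratios were -2.44 (-3.53 to -1.42, from 13 and 25 UMIs), -1.24 (-1.91 to -0.59) and -0.92 (-1.61 to -0.25). The cycling cells carried 7 mesenchymal and 3 osteoblast or cementoblast markers beside those of division. The Angpt1 interval included 0 in endothelium (0.39), perivascular cells (-0.04), neutrophils (-0.75) and unnamed cells (-0.92).

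In perivascular cells 1 of 4 members measured was at least 1.5-fold higher in Lipo-Clo, where 10.6% of genes were, and 0 were at least 1.5-fold lower, where 10.7% were. The member was Angpt2 (0.68, 0.21 to 1.14), and it was the higher in Lipo-Clo in all 3 subclusters with at least 20 of its UMIs, each with an interval that included 0. The 7 erythroid markers summed to 46593 and 98182 CPM in perivascular cells and the 9 neutrophil markers to 1438 and 147 CPM, and their part in the Angpt2 ratio was not tested. Angpt1 (-0.04, -0.55 to 0.46) and Flt1 (-0.03, -0.56 to 0.49) were close to equal. In epithelium Vegfa was higher in Lipo-Clo (0.64, 0.27 to 1.01). The ratio was 0.63 (0.15 to 1.14) in the Ambn-led cluster and -0.37 (-1.32 to 0.51) in the Lgals7-led cluster. It was -0.89 (-2.53 to 0.54) in a cluster led by Cxcl14 and Dsc3. Among these clusters, Vegfa was thus higher in Lipo-Clo in the Ambn-led one alone. That cluster was also larger in Lipo-Clo, at 606 cells against 339 in Lipo-PBS. How much of the epithelial ratio came from this unequal filling was not tested. Over all kept cells, of which endothelium made up 4.70% in Lipo-Clo and 6.22% in Lipo-PBS, the ratios ran from -0.26 for Vegfa to -1.49 for Flt4. By UMIs, endothelium held 595198 of 26852424 in Lipo-Clo and 1243670 of 25831678 in Lipo-PBS. The unnamed mixed cluster held 73 and 679 of these cells, and the part of this makeup in the ratios was not tested.

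Of a wider list of 41 genes of the same pathways, 30 had at least 20 UMIs in endothelium, with 10 at least 1.5-fold higher and 3 at least 1.5-fold lower in Lipo-Clo, where 12.9% and 14% of all genes were. Among those with at least 50 UMIs the highest ratios were those of Apln (1.20), a peptide ligand of sprouting endothelium, the Notch ligand Dll4 (0.99), the VEGF co-receptor Nrp1 (0.89) and Epas1, which encodes HIF-2α (0.86). The lowest were those of the vasodilator peptide gene Adm (-1.46), Rcan1 (-0.40), Arnt (-0.33) and Plcg1 (-0.29), the last 3 of them within the limit. In endothelium without the lymphatic-marked subclusters the first 4 had ratios of 0.18, 0.28, -0.03 and 0.17, and 2 of 24 measured genes were past the limit in each direction, where 10.9% of all genes were higher and 13.7% lower. Adm, with 8 and 46 UMIs in the whole endothelium, kept 2 and 2 there and was not measured. Rcan1, Arnt and Plcg1 had ratios of 0.01, -0.75 and -0.63 there.

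In dental mesenchyme 36 of the 41 genes were measured, with 1 at least 1.5-fold higher and 7 at least 1.5-fold lower in Lipo-Clo, where 5.51% and 9.24% of all genes were. Ccbe1, whose product is needed for the activation of VEGF-C, had the lowest ratio (-1.11, -1.30 to -0.92) and stood at 25.4 CPM in Lipo-Clo against 54.9 CPM in Lipo-PBS. Nrp1 (-1.05, -1.24 to -0.86), Ptprb, a phosphatase that acts on TIE2 (-0.93, -1.54 to -0.35), and the calcineurin regulator Rcan1 (-0.79, -0.99 to -0.60) followed. Ptprb was at 2.84 CPM in Lipo-Clo (38 UMIs) and 5.42 CPM in Lipo-PBS (70 UMIs), far under its 580 and 377 CPM in endothelium. The highest ratios were those of placental growth factor, Pgf (0.70, 0.40 to 1.01), Angpt4 (0.52, 0.31 to 0.74), Ddit4 (0.45, 0.18 to 0.73) and Ankrd37 (0.40, -0.08 to 0.88). Of the 9 measured hypoxia targets, 0 were at least 1.5-fold higher and 1, Adm, was at least 1.5-fold lower (-0.68), with a median ratio of 0.04.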

How the data were processed

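Single-cell RNA of 2 libraries, 1 per condition, was examined. The deposited values are raw UMI counts for each gene in each cell, written by Cell Ranger 8.0.0 according to the matrix headers. The submitters' processing notes name Cell Ranger 3.1.0, Seurat 3.1.1 and the builds GRCm39 and mm39, so which version and annotation made the counts is not settled. The deposited files held 9362 Lipo-Clo cells (31053404 UMIs) and 9653 Lipo-PBS cells (30537834 UMIs).

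Cells under 200 genes were left out, as were those above 20% of UMIs from mitochondrial genes. Scrublet's automatic threshold (scanpy 1.11.5) called 0 and 1 doublets, so the 632 and 633 highest scores, 0.8% per 1000 cells, were left out in their place. After scaling each cell to 10000 and taking logs, both libraries were clustered together by Leiden (leidenalg 0.10.2, resolution 1, seed 1), on 20 neighbours in 30 components of 2000 variable genes and with no batch correction. The 10 genes and the wider list were kept out of the variable genes. Clusters were named from marker lists, where a marker counted at 2-fold above the median cluster and in at least 10% of cells, and at least 3 were needed. A cluster led by genes of another class or with mixed lineages stayed unnamed. Dental mesenchyme joins mesenchyme, osteoblast or cementoblast, odontoblast and papilla or pulp clusters, the last added after seeing the data. Endothelium, perivascular cells and mesenchyme were clustered again. The clusters of the epithelium were compared separately after seeing the data.

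UMIs were summed per library and class. Levels have exact Poisson intervals, shares exact Clopper-Pearson intervals and ratios the exact interval for the ratio of 2 Poisson counts, at 95%. The limit for a count of 0 is 3 UMIs. There is no test and no p-value. The ratio and its interval were run on simulated Poisson counts with known changes. Those counts held no difference between mice or in cell makeup, so the run checks the calculation only. Genes named are the 10 members, the 4 wider-list genes with the largest ratio in each direction with at least 50 UMIs, the 3 most similar genes per member and markers. The members, lists and naming rules were chosen with earlier results of these data known. Alternatives included edgeR 4.0.16 TMM and DESeq2 1.42.0 size factors.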

Additional observations from a re-analysis of the deposited data

Results flagged for a closer look

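Ratios of Lipo-Clo over Lipo-PBS with intervals clear of 0 in opposite directions in 2 groups of cells were looked for, and none of these differences was tested. Vegfa had a log2 ratio of 0.64 in epithelium and -1.64 in endothelium, 2.27 apart, the latter from 4 and 26 UMIs. The endothelial Vegfa level did not exceed that of B cells in either library, but in Lipo-PBS it exceeded that of erythroid cells (20.9 against 10.6 CPM). Vegfc was at 0.77 in endothelium and -1.69 in epithelium, 2.46 apart, with 7 and 22 UMIs in epithelium. Flt1 was at 1.19 in endothelium and -1.37 in epithelium, 2.57 apart, Kdr at 0.75 and -1.10, 1.85 apart, and Tie1 at 0.43 and -1.29, 1.72 apart. The epithelial levels of these 3 receptors were 10.9, 8.64 and 3.01 CPM in Lipo-Clo and 28.3, 18.6 and 7.35 CPM in Lipo-PBS. They were far under the endothelial ones. In endothelium without the lymphatic-marked subclusters the ratios of Vegfc, Flt1, Kdr and Tie1 were 0.02, 0.21, 0.09 and 0.17. Of the epithelial cells with a UMI of Flt1, 14 of 22 in Lipo-Clo and 31 of 41 in Lipo-PBS held a UMI of an endothelial marker, of those with Kdr 11 of 15 and 25 of 30, and of those with Tie1 5 of 5 and 15 of 17, against 9.80% and 17.2% of all epithelial cells. In the Lgals7-led epithelial cluster, with 181 Lipo-Clo and 374 Lipo-PBS cells, the Flt1 ratio was -1.58 (-2.66 to -0.63), and in the Ambn-led cluster, with 606 and 339 cells, it was -0.31 (-1.44 to 0.88). Angpt1 was at 1.33 in the Ctnnd2-led papilla or pulp-like subcluster and -1.21 in the Ccl19-led fibroblast-like subcluster, 2.54 apart.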

How the results depend on the processing

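The number of members past 1.5-fold in endothelium was 5 and went to 2 with the mean over cells of scaled counts, to 1 with the same mixture of subclusters, to 2 at a limit of 2-fold and to 0 without the lymphatic-marked subclusters, an alternative chosen after seeing the data. In dental mesenchyme it was 4 and went to 2 with the same mixture and to 1 at the 2-fold limit. Under the other alternatives run, these counts stayed within 1.5 times, at 4 to 7 and 3 to 5. At the reported setting 12.9% of all genes were higher and 14% lower in endothelium, and 5.51% and 9.24% in dental mesenchyme. Without the lymphatic-marked subclusters these endothelial shares were 10.9% and 13.7%. For the other alternatives the share of all genes was not measured, so those counts describe the members only. The endothelial percent of receptor UMIs in Lipo-Clo became 76.9 with doublets kept, 75.1 with every deposited cell, 77.0 at Leiden resolution 0.5 and 77.0 with each library clustered on its own, and, chosen after seeing the data, 66.1 without the lymphatic-marked subclusters and 77.1 with the mixed cluster as endothelium. In Lipo-PBS it became 72.5 with doublets kept, 60.3 under stricter filters (500 genes, 10% mitochondrial), 76.6 at resolution 0.5, 59.0 with separate clustering, 37.7 without the lymphatic-marked subclusters and 78.1 with the mixed cluster. The mesenchymal percent of Vegfa UMIs became 59.4 in Lipo-Clo and 61.4 in Lipo-PBS with doublets kept, 59.7 and 60.7 with every deposited cell, 57.3 and 55.8 at Leiden resolution 2, and 61.3 in Lipo-PBS without the haemoglobin-led mesenchymal subcluster, also chosen after seeing the data. Of 390 values for 29 single ratios, 347 lay in the interval of the reported ratio. Among the 17 ratios with intervals clear of 0, the sign changed for 1, Flt4 in endothelium, which became 0.31 at Leiden resolution 0.5 and 0.34 with the mixed cluster as endothelium. Among the other 12, the sign changed under at least 1 alternative for 8, among them Tek (-0.46 to 1.11), Angpt1 (-0.61 to 0.52) and Angpt2 (-0.51 to 0.68) in endothelium. Over all alternatives the endothelial ratio lay between 0.21 and 1.84 for Flt1 and between 0.09 and 1.66 for Kdr, and the mesenchymal ratio between -0.87 and -0.41 for Angpt1 and between -0.87 and -0.59 for Vegfc. The cause of these moves was not tested. TMM and size factors moved all endothelial ratios by -0.06 and -0.05. No paired analysis was possible because there is only 1 library for Lipo-Clo and 1 for Lipo-PBS. Depth limits Vegfd, the receptors outside vessels and all macrophage values.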
